A study of Homo sapiens with 12 samples.

Results

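The 8 genes described here encode the parts of caveolae, the flask-shaped pits of the plasma membrane. They are the caveolins CAV1, CAV2 and CAV3, the cavins CAVIN1, CAVIN2 and CAVIN3, and the membrane-shaping proteins EHD2 and PACSIN2. They were chosen by name as the core coat and neck proteins, with earlier results of these data known, and all 8 were found among the 58174 genes measured. Their values were read from mRNA sequencing of U87 (U-87 MG) and U118 (U-118 MG) cells, both established human glioblastoma lines. In each line, sensitive cells were compared with resistant cells, which had grown out as aggregates after continuous temozolomide (TMZ) at 50 µM, with 3 libraries in each of the 4 groups and 12 in all. Temozolomide is the DNA-alkylating drug used against glioblastoma. Per the study's methods, cells of both lines had been sorted for the absence of CD133 and CD15, surface markers of stem-like cells, and were kept in serum with the differentiation factor BMP2. By the study's account, each resistant group was made of cells that had survived the drug and regrown. Survival of some cells cannot be told apart from a change within cells. Whether the 3 libraries of a group came from separate cultures is not given in the sources used here, so the errors below measure only the spread between these libraries.

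Caveolins are hairpin membrane proteins that bind cholesterol and assemble into oligomers, and cavins are coiled-coil proteins that coat the cytoplasmic face of the pit and give it its curvature. CAV1 and CAVIN1 are needed for caveolae in most tissues, CAV2 builds into complexes with CAV1, and CAV3 is the caveolin of muscle. EHD2, an ATPase at the neck, holds the pit at the surface, and PACSIN2, an F-BAR protein, bends the membrane as the pit forms.

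Values are TPM, transcript abundances scaled for gene length and library total, so levels can be compared between genes of a library. Each line had a table of its own, so levels of the 2 lines are set side by side without a test. A gene was tested in a line if it reached 1 TPM in at least 3 of its 6 libraries. Differences are log2 fold changes of TPM + 1, resistant minus sensitive, with the standard error (SE) of limma's fit across all tested genes of that line, and a call required both an adjusted p under 0.05 and a difference of 1 or more on this log2 scale, in either direction. The members were picked with these contrasts known, so their values are descriptive and no p is given for them.

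Some features of the libraries bear on what follows. Across genes, the rank correlation of U118 resistant with U118 sensitive libraries was 0.806 to 0.838, below that of U118 resistant with U87 sensitive libraries (0.895 to 0.909) or with U87 resistant libraries (0.907 to 0.913), so by this measure the libraries labelled U118 resistant lay nearer to the other line than to their own sensitive group. U87 sensitive and U87 resistant libraries correlated at 0.944 to 0.953. The identity of the libraries was not tested, so differences in U118 are given between groups as labelled. Among the U118 resistant libraries, replicate 1 stood apart, with 15193 genes at 1 TPM or more against 13270 and 13545, and with 13.2% of its TPM in mitochondrially encoded genes against 29.9% and 26.1%. That percentage was 12.9 to 16.9 in U87 sensitive, 22.2 to 23.7 in U87 resistant and 7.42 to 19.7 in U118 sensitive libraries. Of the listed markers of glial cells, VIM was at 4425 TPM or more in every library, whereas GFAP stayed under 0.7 TPM and AQP4 was listed at 0 throughout. Of the markers of cells rich in caveolae, ADIPOQ (adipocytes) and MYOG (muscle) were at 0 and CDH5 (endothelium) was at most 0.0740 TPM. Other listed markers of these cells reached 1 TPM in every library of at least 1 group. They included FABP4 (adipocytes) at 7.68 to 11.8 TPM in U87 sensitive and TEK (endothelium) at 1.37 to 3.93 TPM in U118 resistant libraries. Among muscle markers, TNNT1 was at 104 TPM or more in every library. DES was at 1.2 to 1.58 TPM in U87 resistant and MYH3 at 1.3 to 1.71 TPM in U118 sensitive libraries. Fibroblast markers were not absent, and are given beside CAV1.

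The caveolins share a stretch that carries the signature motif of the family, and its letters are shown because CAV1 and CAV2 differed in opposite directions in U118. Below are the 60 bases of coding sequence, in frame, in which the 3 genes were most alike, from GENCODE release 29 transcripts on GRCh38, each on the + strand and crossing 1 exon junction. Capitals mark the 36 bases identical in all 3.

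CAV1: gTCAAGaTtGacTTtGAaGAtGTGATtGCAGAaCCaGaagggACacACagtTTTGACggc
CAV2: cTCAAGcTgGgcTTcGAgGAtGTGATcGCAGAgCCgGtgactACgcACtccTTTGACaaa
CAV3: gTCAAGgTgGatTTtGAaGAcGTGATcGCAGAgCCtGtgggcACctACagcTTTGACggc

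They lie within chr7:116526684-116558999 (exons 2 and 3 of CAV1-201), chr7:116499926-116500313 (exons 1 and 2 of CAV2-201) and chr3:8733985-8745579 (exons 1 and 2 of CAV3-201). In this window CAV2 matched CAV1 at 39 bases and CAV3 matched it at 47. The longest exact run shared by any annotated transcripts of CAV1 and CAV2, on either strand, was 16 bases. A longer read within these transcripts thus could not match both genes exactly.

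CAV1 was the main caveolin in all 12 libraries. In U87 it stood at 193.1, 304.4 and 262.3 TPM in the sensitive libraries (253.2 ± 56.2, SD, n = 3) and at 242.8, 251.9 and 287.6 TPM in the resistant ones (260.8 ± 23.7, SD, n = 3). These groups overlapped, and the log2 fold change was 0.06 (SE 0.17). In U118 the sensitive libraries had 1609, 1521 and 1773 TPM (1634 ± 128, SD, n = 3), above 99.6% of the genes at 1 TPM or more, and the resistant ones 576.0, 195.5 and 209.0 TPM (326.8 ± 216, SD, n = 3). All 3 resistant libraries lay below all 3 sensitive ones, and replicate 1 held the highest of the resistant values. CAV1 was called lower, with a log2 fold change of -2.50 (SE 0.39), or -3.01 without that replicate, and it was called in each of the 6 fits that left out 1 library. U118 sensitive cells thus held the highest CAV1 level, and the other 3 groups overlapped with each other. In bulk libraries, fewer cells of a type and less RNA per cell cannot be told apart.

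Fibroblast markers moved in the same direction as CAV1 in U118. The summed level of the 7 markers was 927.1 to 1307 TPM in U118 sensitive and 196.1 to 436.9 TPM in U118 resistant libraries, with 7 of 7 and 5 of 7 at 1 TPM or more in every library. PDGFRA, a receptor of fibroblasts and glial progenitors, went from 71.8 to 88.3 TPM in the sensitive libraries to 0.0716 to 0.105 TPM in the resistant ones. In U87 the sums were 198.5 to 205.3 TPM in sensitive and 366.8 to 438.9 TPM in resistant libraries, while CAV1 overlapped. The part of these markers in the CAV1 difference was not tested.

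CAV2 was a minor caveolin, and it went the opposite way to CAV1 in U118. In U87 the sensitive libraries had 1.93, 2.753 and 3.259 TPM and the resistant ones 2.409, 3.836 and 1.616 TPM, which overlapped (log2 fold change -0.04, SE 0.26). In U118 the sensitive libraries were listed at 0.086, 0 and 0 TPM, and the resistant ones at 20.55, 6.939 and 7.816 TPM. The U118 groups lay apart, replicate 1 again held the highest resistant value, and every resistant value was above the highest U87 value. CAV2 was called higher, at a log2 fold change of 3.48 (SE 0.36), and at 3.03 without that replicate. The size of this value depends on the pseudocount, because the sensitive group was at or near 0: with 0.1 TPM added instead of 1 it was 6.41.

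None of 10 housekeeping genes looked at after the member values were known, such as ACTB and GAPDH, was at 0 in any library, and their lowest value was 15.7 TPM (TBP). Genes expressed at such levels cannot show how often genes of low level are listed at 0. The files keep no read counts, so how deep a 0 reaches is unknown.

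CAV3, the muscle caveolin, was listed at 0 TPM in 11 of 12 libraries and at 0.0604 TPM in U118 sensitive replicate 2. It passed the filter in neither line and was not tested.

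**Figure D1:**
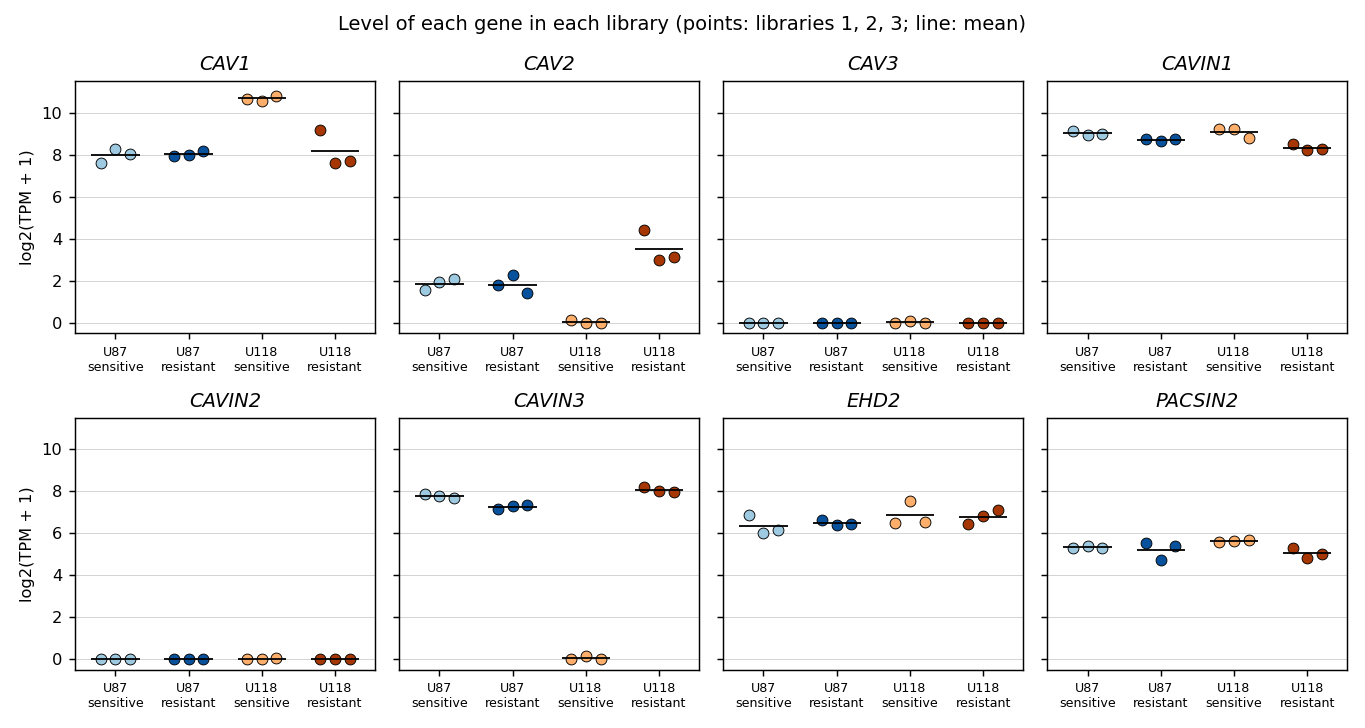
Level of the 8 genes in each of the 12 libraries, as log2(TPM + 1) on the vertical axis, with 1 point per library, ordered as replicates 1, 2 and 3, and a line at the group mean. CAV2 and CAVIN3 lie at the bottom of the axis in U118 sensitive libraries alone, CAV1 is highest there, and CAV3 and CAVIN2 are at the bottom in all 4 groups.

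Among the cavins, the most alike 60 coding bases of CAVIN1, CAVIN2 and CAVIN3 are shown for the same reason, since CAVIN3 differed in U118 by far more than CAVIN1. All 3 genes are on the - strand, each stretch lies in exon 1, and capitals mark the 34 bases identical in all 3.

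CAVIN1: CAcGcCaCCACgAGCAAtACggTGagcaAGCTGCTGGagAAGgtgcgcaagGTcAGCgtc
CAVIN2: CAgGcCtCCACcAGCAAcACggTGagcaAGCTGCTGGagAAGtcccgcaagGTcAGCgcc
CAVIN3: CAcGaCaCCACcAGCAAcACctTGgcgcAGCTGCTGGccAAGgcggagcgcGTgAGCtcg

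They lie at chr17:42422741-42422800, chr2:191846557-191846616 and chr11:6320207-6320266 of GRCh38. CAVIN2 matched CAVIN1 at 52 bases here and CAVIN3 matched it at 38. The longest exact run shared by any annotated transcripts, on either strand, was 24 bases for CAVIN1 and CAVIN2. It was 13 for CAVIN2 and CAVIN3, and 12 for CAVIN1 and CAVIN3.

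CAVIN1, the cavin on which the coat is built, was the most abundant cavin in every library. Its U87 levels were 554.2, 494.3 and 505.2 TPM in sensitive and 424.2, 402.9 and 425.8 TPM in resistant libraries. Its U118 levels were 588.5, 599.8 and 446.8 TPM in sensitive and 356.8, 293.5 and 307.8 TPM in resistant libraries. In both lines every resistant library lay below every sensitive one. The log2 fold change was -0.31 (SE 0.07) in U87 and -0.76 (SE 0.22) in U118, under the size needed for a call in both. The median of all tested genes was itself -0.24 in U87 and -0.52 in U118, and after scaling each library to the median ratio over genes the CAVIN1 difference was -0.03 and -0.24. The CAVIN1 difference thus shrank in both lines once the shift shared by the genes of that line was taken out.

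CAVIN3, a cavin that binds protein kinase C delta, had the largest difference of the 8. In U118 sensitive libraries it was listed at 0, 0.1106 and 0 TPM, and in U118 resistant libraries at 288.7, 256.8 and 247.0 TPM. The gene went from at or near 0 TPM to a level above 96.7% of the genes at 1 TPM or more, and the 3 resistant libraries differed little from each other. CAVIN3 was called higher, with a log2 fold change of 8.0 (SE 0.21), 7.93 to 8.05 when 1 library was left out, and 11 with a pseudocount of 0.1. The summed level of the 6 muscle markers also differed, at 106.3 to 138.7 TPM in U118 sensitive and 233.5 to 299.9 TPM in U118 resistant libraries, nearly all of it from TNNT1 (104 to 137 and 232 to 299.5 TPM), while MYOG was at 0. Their part in the CAVIN3 difference was not tested.

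In U87, CAVIN3 was expressed in both groups. The sensitive libraries had 231.7, 217.9 and 205.3 TPM and the resistant ones 140.2, 158.0 and 160.0 TPM. All resistant values were lower, by a log2 fold change of -0.51 (SE 0.08), which was -0.24 after median-ratio scaling, and the gene was not called. Set side by side, U118 resistant cells (247.0 to 288.7 TPM) stood above U87 sensitive cells (205.3 to 231.7 TPM), then U87 resistant cells (140.2 to 160.0 TPM), then U118 sensitive cells, and no neighbours in this order overlapped.

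CAVIN2, a cavin of endothelium and lung, was listed at 0 TPM in 10 of 12 libraries, at 0.0506 TPM in U118 sensitive replicate 3 and at 0.0236 TPM in U118 resistant replicate 2. It was not tested in either line.

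EHD2 was expressed in all groups. In U87 it stood at 116.7, 63.13 and 69.52 TPM in sensitive and at 96.55, 83.26 and 87.15 TPM in resistant libraries. In U118 it stood at 89.08, 182.1 and 92.01 TPM in sensitive and at 84.87, 112.4 and 135.8 TPM in resistant libraries. The groups overlapped in both lines, and single sensitive libraries, replicate 1 in U87 and replicate 2 in U118, were the highest of their line. The log2 fold change was 0.15 (SE 0.22) in U87 and -0.07 (SE 0.31) in U118, and the latter changed sign to 0.45 after median-ratio scaling.

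PACSIN2 was the least abundant of the members that were expressed in every group. U87 levels were 38.73, 41.41 and 38.53 TPM in sensitive and 45.1, 25.44 and 40.97 TPM in resistant libraries, which overlapped (log2 fold change -0.13, SE 0.21). U118 levels were 47.34, 48.09 and 50.47 TPM in sensitive and 38.11, 27.43 and 30.74 TPM in resistant libraries. In U118 all resistant values were lower, with a log2 fold change of -0.60 (SE 0.21) that came to -0.09 after median-ratio scaling. Exons of PACSIN2 overlap those of ARFGAP3 on the same strand, which ran at 47.3 to 53.6 TPM in U118 sensitive and 8.32 to 31.2 TPM in U118 resistant libraries. Whether reads were shared between them was not tested.

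In counts, 6 of the 8 members were tested in each line. In U87 none was called, and the groups did not overlap for 2, both lower in resistant cells. With no size required, 2 members had an adjusted p under 0.05 in limma's fit, and so did 5413 of all 13845 genes tested. Over all genes tested in U87, 10.8% were called (3.03% higher and 7.79% lower), and 53.4% did not overlap (13.6% higher and 39.8% lower). In U118, 3 were called, namely CAV2 and CAVIN3 higher and CAV1 lower, and 5 did not overlap, 2 higher and 3 lower. With no size required, 5 members had an adjusted p under 0.05 there, and so did 7961 of all 15527 genes tested. Over all genes tested in U118, 35.3% were called (8.64% higher and 26.6% lower), and 58.6% did not overlap (15.7% higher and 42.9% lower). Their median log2 fold change was -0.08 in U87 and -0.33 in U118, against -0.24 and -0.52 over all genes tested. Nothing is read from these counts, since the contrasts themselves chose the members.

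**Figure D2:**
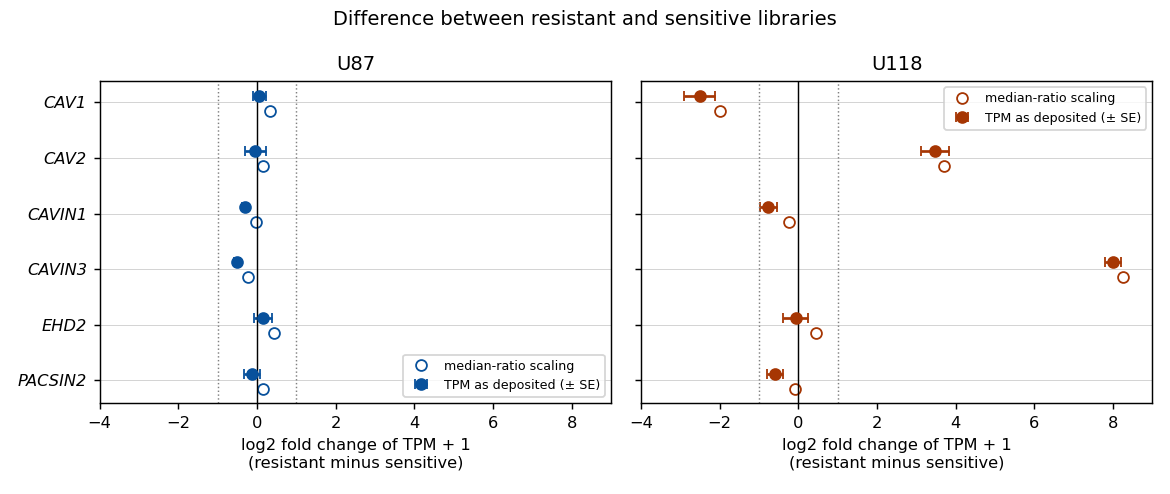
Log2 fold change of TPM + 1, resistant minus sensitive, of the 6 tested members in U87 (left) and U118 (right), with filled points and SE bars for TPM as deposited and open points after median-ratio scaling; dotted lines mark a size of 1. All U87 points lie within the dotted lines, whereas CAV1 (-2.50), CAV2 (3.48) and CAVIN3 (8.0) lie outside them in U118 under both scalings.

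Ratios within a library do not depend on the scaling of that library, and they changed in U118. CAV2 made up 1.04% ± 0.17 (SD, n = 3) of all caveolin TPM in U87 sensitive and 1.01% ± 0.47 (SD, n = 3) in U87 resistant cells. In U118 its share was at most 0.0053% in sensitive libraries and was 3.45%, 3.43% and 3.60% in the 3 resistant ones. The share in U118 resistant libraries was nearly constant although CAV1 itself ran from 195.5 to 576.0 TPM there, so both caveolins were highest in the same library, replicate 1, and in a nearly fixed proportion.

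CAVIN3 made up 29.7% ± 0.86 (SD, n = 3) of all cavin TPM in U87 sensitive and 26.8% ± 1.73 (SD, n = 3) in U87 resistant cells. In U118 its share was at most 0.0184% in sensitive and 45.3% ± 1.18 (SD, n = 3) in resistant libraries. In TPM as deposited, the summed cavin level of U118 differed little, at 446.8 to 599.9 TPM in sensitive and 550.4 to 645.6 TPM in resistant libraries, with CAVIN3 added and CAVIN1 lower. Unlike a share, this sum depends on the scaling of the library. After median-ratio scaling the CAVIN1 log2 fold change in U118 was -0.24 in place of -0.76. Caveolin TPM per cavin TPM was 2.54 to 3.97 in U118 sensitive and 0.368 to 0.924 in U118 resistant libraries, beside 0.248 to 0.431 in U87 sensitive and 0.435 to 0.494 in U87 resistant libraries.

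**Figure D3:**
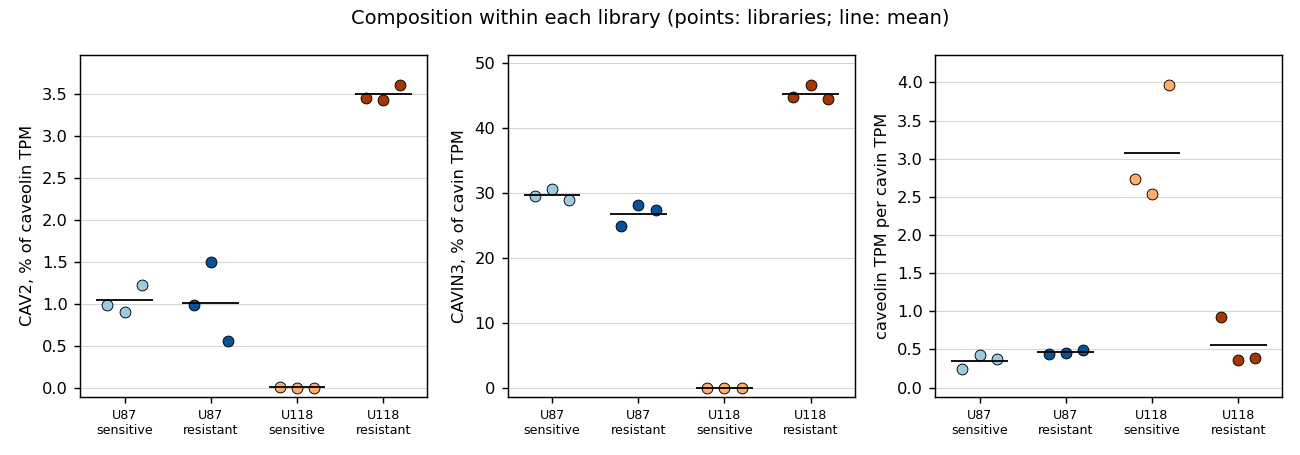
Composition of the caveola genes within each library, with CAV2 as a percentage of summed caveolin TPM (left), CAVIN3 as a percentage of summed cavin TPM (middle) and caveolin TPM per cavin TPM (right); points are libraries and lines group means. U118 sensitive libraries are at the bottom of the first 2 panels and, at 2.54 to 3.97, at the top of the last.

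In view of the library correlations, the mean log2(TPM + 1) of each member in U118 resistant cells was placed between the 2 sensitive groups. It lay nearer to U87 sensitive than to U118 sensitive cells for 5 of the 6 tested members, all but EHD2, against 65.5% of 16155 genes tested in either line. For CAVIN3 the distances were 0.27 to U87 sensitive and 8.0 to U118 sensitive cells, and for CAV1 they were 0.20 and 2.50. CAVIN1 and PACSIN2 changed sides when all 12 libraries were scaled by median ratio, which left 3 of 6. Those 3, namely CAV1, CAV2 and CAVIN3, were also the members at least 1 apart between the sensitive groups, and among all genes that far apart 74.4% lay nearer to U87. The placing was not exact, since CAV2 was higher in U118 resistant cells than in any U87 library. As each line had a table of its own, these distances are descriptive.

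The chromosomal neighbours of the members that moved were looked at next. CAV2 (chr7:116287380-116508541) and CAV1 (chr7:116524785-116561184) lie next to each other on the + strand of chromosome 7 in GRCh38, between TES and MET. In U118, TES, a focal adhesion protein, rose with CAV2 from 0.3464 to 0.7188 TPM to 4.137 to 13.11 TPM (log2 fold change 2.258, SE 0.37, limma adjusted p = 0.00106). MET, a receptor tyrosine kinase, fell with CAV1 from 123.6 to 141.6 TPM to 48.62 to 61.33 TPM (log2 fold change -1.29, SE 0.20, limma adjusted p = 0.000748). CAPZA2, a capping protein of actin filaments, fell as well (log2 fold change -1.29, SE 0.32, limma adjusted p = 0.00888), but after median-ratio scaling MET (-0.78) and CAPZA2 (-0.80) were under the size needed for a call. MDFIC, the farthest on the CAV2 side, was not called in U118 (-0.18, SE 0.22, limma adjusted p = 0.522). In U118, in TPM as deposited, TES and CAV2 were thus called higher and CAV1, MET and CAPZA2 lower, while MDFIC, also on the CAV2 side, was not called. In U87, MDFIC was called lower (-1.01, SE 0.19, limma adjusted p = 0.00642), but not after median-ratio scaling (-0.75), and it was called in 4 of 6 fits that left out 1 library. TES, MET and CAPZA2 were not called in U87.

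CAVIN3 (chr11:6318946-6320647, - strand) had no such company. Its tested neighbours TRIM5, FHIP1B, SMPD1 and APBB1 were not called in U118, with log2 fold changes of 0.44, 0.06, 0.57 and 0.01, or in U87, with -0.35, -0.02, 0.18 and -0.80. SMPD1, an acid sphingomyelinase, reached a call in U118 after median-ratio scaling, at 1.08. An antisense gene that overlaps exons of CAVIN3, AC068733.3, was at most 0.372 TPM in any library, and the one across CAV2, AC002066.1, was at most 0.628 TPM.

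**Figure D4:**
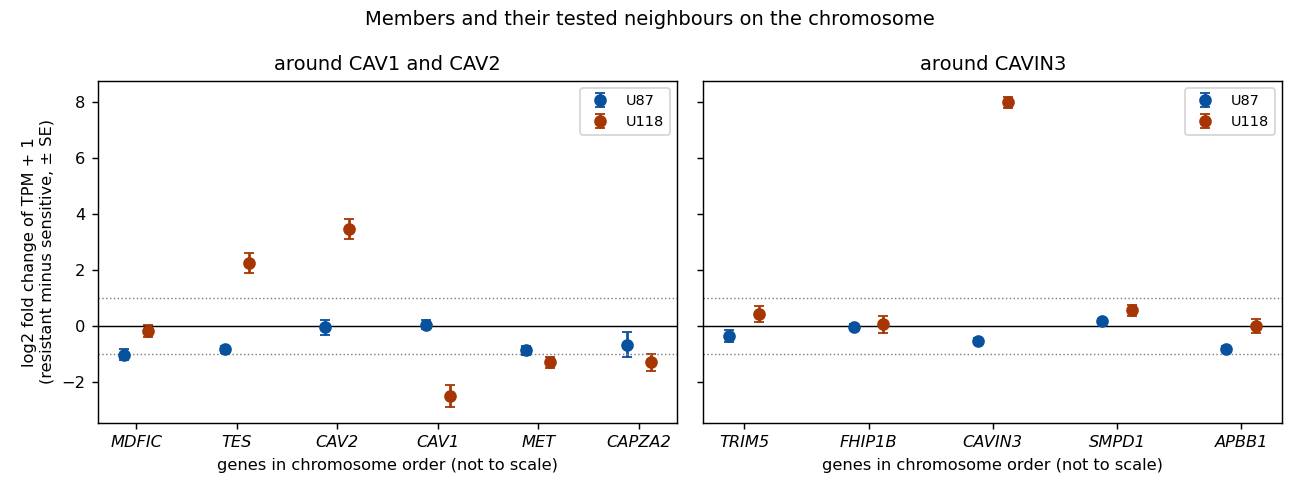
Log2 fold change of TPM + 1, resistant minus sensitive, with SE bars, of CAV1 and CAV2 (left), of CAVIN3 (right) and of the 2 nearest tested protein-coding genes on each side, in chromosome order and not to scale. In U118, TES and CAV2 lie above 1 while CAV1, MET and CAPZA2 lie below -1, and CAVIN3, at 8.0, stands alone among neighbours within 1 of 0.

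The genes whose profile over the 12 libraries was nearest to that of CAVIN3, by the root mean square (RMS) difference of centred log2(TPM + 1) among 16154 genes, were RAC2 (0.300), RAB32 (0.544) and FABP5 (0.640). RAC2, a small GTPase of blood cells, was at 0.637 to 0.773 TPM in U118 sensitive and 486 to 566 TPM in U118 resistant libraries, with 243 to 271 TPM in U87 sensitive ones. RAB32, a GTPase of lysosome-related organelles, was listed at 0 in U118 sensitive libraries and ran at 142 to 171 TPM in U118 resistant ones. FABP5, a fatty acid binding protein, ran at 0 to 0.0933 TPM and at 87.3 to 115 TPM in the same groups. These genes lie on other chromosomes than CAVIN3.

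For CAV1 the nearest profiles were those of EPB41L4B (RMS difference 0.197), CREBZF (0.214) and the pseudogene ZNF731P (0.228). CREBZF, a bZIP protein, ran at 39.3 to 43.3 TPM in U118 sensitive and at 5.66 to 19.9 TPM in U118 resistant libraries. All 3 were far lower in level than CAV1, so the likeness is of pattern only.

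The bases before the start of a strongly expressed and of an unexpressed caveolin are shown for context, as CAV1 and CAV3 stood at the ends of the range. RefSeq windows (GRCh38.p14) matched 6 of the 8 members, namely all but CAVIN1 and CAVIN3. Of each window the 250 bases before the start were used. Bases in exons of the gene itself were left out of the sequences shown, but not out of the counts over full windows. The windows hold CG dinucleotides, the sites of DNA methylation, which are marked in capitals. CG reads the same on both strands.

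CAV1: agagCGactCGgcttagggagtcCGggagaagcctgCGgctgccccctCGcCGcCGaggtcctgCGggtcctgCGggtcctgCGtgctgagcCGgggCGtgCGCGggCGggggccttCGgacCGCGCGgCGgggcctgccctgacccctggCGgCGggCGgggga
CAV3: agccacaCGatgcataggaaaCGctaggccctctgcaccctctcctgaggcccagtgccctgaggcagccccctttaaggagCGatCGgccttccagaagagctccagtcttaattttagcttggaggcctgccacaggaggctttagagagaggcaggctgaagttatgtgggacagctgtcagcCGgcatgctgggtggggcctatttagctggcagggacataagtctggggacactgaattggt

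The first is chr7:116526112-116526276 (+ strand), 165 intronic bases before a CAV1 start that lies downstream of the gene's first one, and it holds 23 CG. The second is chr3:8733552-8733799 (+ strand), 248 bases before the CAV3 start, and it holds 5. Over all 35116 windows of 250 bases the median was 11 CG, and the full window before this downstream start of CAV1 held 29, more than 85.9% of them. Both windows at the first start of CAV1 held 18 and 16 CG, more than 63.2% and 59.0%, and that of CAV3 held 5, more than 34.3%. Those CAV1 windows lay mostly or wholly in exons of CAV1 itself, with 224 and 250 of their 250 bases there. The windows of CAV2, at or near 0 TPM in U118 sensitive cells, held 35 and 27 CG, with 250 and 138 bases in exons of CAV2 itself. At least 1 CG was found in 93.9% of all windows, and no methylation was measured here.

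Genes that work with caveolae, or on the clathrin route that runs beside them, were taken from 5 lists written by hand with 52 genes in all. In U87, 47 of them were tested and 8 were called, 1 higher and 7 lower, or 17.0% of those tested, beside 10.8% of all genes tested. In U118, 48 were tested and 21 were called, 6 higher and 15 lower, or 43.8%, beside 35.3% of all genes tested. The median log2 fold change over the lists was -0.21 in U87 and -0.33 in U118, beside -0.24 and -0.52 over all genes tested. After median-ratio scaling 3 were called higher and 4 lower in U87, against 10 and 8 in U118, so the excess of lower calls depended on the scaling.

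Relatives of the members formed the first list, of 9 genes. In U87, 2 of 6 tested were called, both lower. EHD1, an ATPase of recycling endosomes, fell from 78.64 to 102.1 TPM to 30.38 to 38.93 TPM (log2 fold change -1.38, SE 0.13, limma adjusted p = 0.000422). EHD4, a close relative, fell from 41.45 to 42.98 TPM to 14.99 to 16.42 TPM (-1.38, SE 0.09, limma adjusted p = 0.000117). EHD1 and EHD4 have been found to stand in for EHD2 at the neck, and EHD2 itself overlapped between the U87 groups. In U118, 3 of 7 tested were called, all lower. They included EHD3, from 11.38 to 12.14 TPM to 0.5823 to 1.023 TPM (-2.80, SE 0.22, limma adjusted p = 1.16e-05), and ROR1, a receptor that holds caveolin and cavin together, from 8.425 to 14.05 TPM to 0.9453 to 1.524 TPM (-2.41, SE 0.25, limma adjusted p = 8.05e-05). The fourth cavin, CAVIN4, known from muscle, stayed at or under 1.18 TPM and was not tested in either line.

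The second list held 16 receptors, kinases and other signalling proteins found in or regulated by caveolae. In U87, 1 of 15 tested was called higher and 3 lower, and in U118 3 of 14 were called higher and 6 lower. After median-ratio scaling these counts were 2 and 2 in U87 and 4 and 3 in U118, so the direction of the excess in U118 turned with the scaling. PRKCD, protein kinase C delta and a binding partner of CAVIN3, was called in opposite directions in the lines. In U118 it rose from 5.651 to 7.093 TPM to 35.23 to 46.55 TPM (2.44, SE 0.23, limma adjusted p = 3.54e-05), and in U87 it fell from 40.88 to 43.08 TPM to 12.08 to 15.03 TPM (-1.54, SE 0.11, limma adjusted p = 0.000166). NOS3, the endothelial nitric oxide synthase that CAV1 inhibits, fell in U87 from 4.916 to 5.593 TPM to 0.5063 to 0.9882 TPM (-1.83, SE 0.16, limma adjusted p = 0.000267). CD36, a scavenger receptor for lipids, rose in U87 from 0 to 0.1737 TPM to 1.977 to 2.388 TPM (1.56, SE 0.13, limma adjusted p = 0.000246).

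The third list, of 9 genes, links caveolae to actin, and 1 of 9 was called lower in each line. After median-ratio scaling none was called in U87, and 1 was called higher and 1 lower in U118. In U118 it was ROCK2, a kinase that acts on the actin cytoskeleton (-1.64, SE 0.25, limma adjusted p = 0.000660), at 10.54 to 16.36 TPM in sensitive and 3.519 to 3.999 TPM in resistant cells. In U87 the same gene was not called, at 3.414 to 10.55 TPM in sensitive and 2.676 to 2.785 TPM in resistant cells (-0.77, SE 0.35, limma adjusted p = 0.129).

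The fourth list held the 5 flotillin and stomatin genes, whose proteins mark cholesterol-rich membrane apart from caveolae. In U87 none was called. FLOT2 (-0.75, limma adjusted p = 0.000392) and STOM (0.91, limma adjusted p = 0.00406) missed a call there on size alone. In U118 all 5 were called, 1 higher and 4 lower. FLOT1, a flotillin, fell from 512.6 to 589.6 TPM to 121.8 to 158.9 TPM (-1.93, SE 0.20, limma adjusted p = 8.48e-05), and it was called under median-ratio scaling too. STOM, a stomatin, went from 41.48 to 55.87 TPM to 10.53 to 37.28 TPM (-1.47, SE 0.43, limma adjusted p = 0.0195), but it was called in only 1 of 6 fits that left out 1 library. After median-ratio scaling 1 of the 5 was called lower and 1 higher.

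The fifth list, of dynamins and the clathrin coat, had 2 of 13 tested genes called higher and 1 lower in U118, and 1 of 12 called lower in U87. After median-ratio scaling, 4 were called higher and 1 lower in U118, and 0 in U87, where the size of DNM1, the gene called there, came to -0.87. DNM1, a dynamin that cuts pits from the membrane, rose in U118 from 0.1461 to 0.5035 TPM to 56.98 to 69.3 TPM (5.62, SE 0.23, limma adjusted p = 5.18e-07) and fell in U87 from 171.4 to 185.0 TPM to 67.13 to 93.34 TPM (-1.14, SE 0.12, limma adjusted p = 0.000626). PICALM, a clathrin assembly protein, fell in U118 from 112.7 to 145.0 TPM to 31.81 to 61.32 TPM (-1.63, SE 0.28, limma adjusted p = 0.00152). DNM1 thus resembled CAVIN3, at less than 1 TPM in U118 sensitive cells, present in U118 resistant ones and lower in U87 resistant than in U87 sensitive cells.

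**Figure D5:**
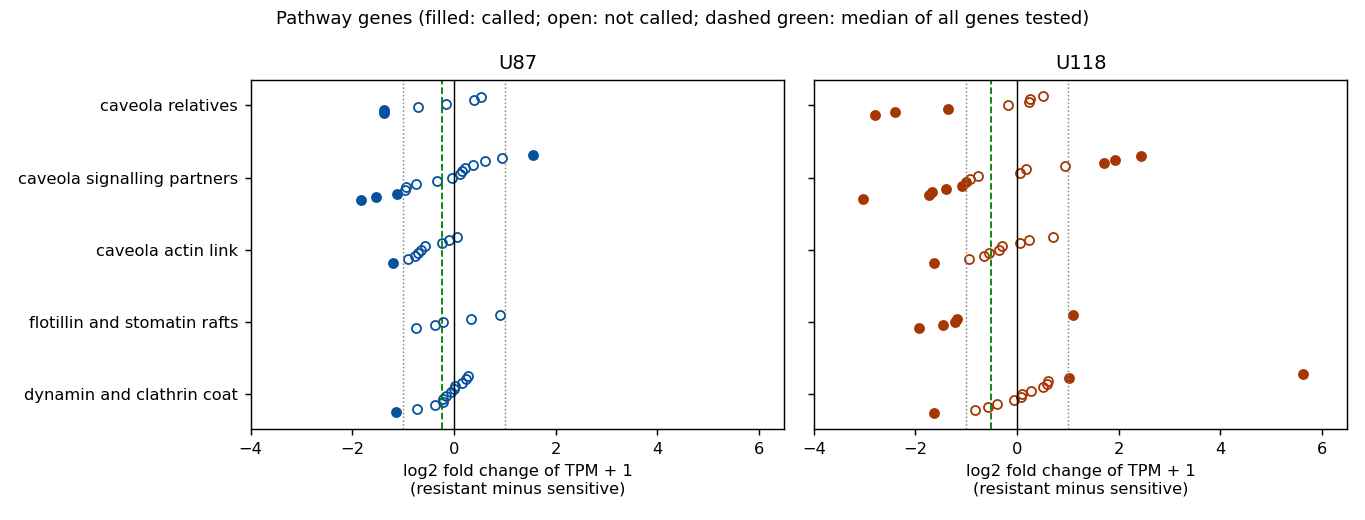
Log2 fold change of TPM + 1, resistant minus sensitive, of the tested genes of the 5 lists in U87 (left) and U118 (right), with filled points for called and open points for other genes, a dashed line at the median of all genes tested and dotted lines at a size of 1. In U118, DNM1 (5.62) lies far to the right of all other listed genes, and the 5 flotillin and stomatin genes are all filled.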

How the data were processed

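Libraries of mRNA were made from total RNA of U87 and U118 cells, with 3 libraries in each of 4 groups taken from the sample labels. The authors deposited TPM values per gene, 1 table for each line, with 58174 Ensembl identifiers, and every sample column was used. The submitters' processing notes name FastQC 0.11.2, Trimmomatic 0.36, HISAT2 2.0, bedtools 2.26.0 and GRCh38, and the quantification step is not given in the sources used here. TPM keeps no read counts, so depth, and a detection limit from it, is unknown, and since TPM sums to a fixed total a change in abundant genes shifts all others.

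A pseudocount of 1 was added, log2 was taken, and each line was fitted alone in R 4.3.3 by limma 3.58.1, whose variances were moderated with a trend (eBayes), with Benjamini-Hochberg adjustment over all 13845 genes tested in U87 and 15527 in U118. The filter was 1 TPM in at least 3 of 6 libraries, and calls needed an adjusted p under 0.05 and a difference of 1 or more, up or down, in log2 units. The procedure was tested on simulated data with known changes. Members, pathway lists and markers were chosen with earlier results of these data known. Named genes were the members, the 2 called genes with the largest log2 fold change of each list and line, the 2 nearest tested protein-coding genes on each side of CAV1 and CAV2 and of CAVIN3, the 3 profiles nearest to CAVIN3 and to CAV1, and defining markers, except items that are not reported here. STOM and FLOT2 in U87, TNNT1, FABP4, TEK, DES, MYH3, PDGFRA, CAVIN4 and the housekeeping genes were named after their values were seen. Alternatives were a pseudocount of 0.1, no filter, a minimum mean of 10 TPM, no trend, calls on the adjusted p alone, a replicate block, scaling by median ratio, TPM without mitochondrially encoded genes, and dropping each library in turn. Gene positions and coding sequences came from GENCODE release 29 (GRCh38), bases before gene starts from RefSeq (GRCh38.p14). Python 3.11.15 with pandas 2.3.3 and matplotlib 3.10.9 was used for tables and figures.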

Additional observations from a re-analysis of the deposited data

Results flagged for a closer look

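In 4 genes every resistant library moved one way in U118 and the opposite way in U87, relative to the sensitive libraries. CAVIN3 had a log2 fold change of 8.0 in U118 and -0.51 in U87. DNM1, the dynamin, had 5.62 and -1.14, and PRKCD, protein kinase C delta, had 2.44 and -1.54. STOM, the stomatin, had -1.47 and 0.91. The difference between the lines was not tested, since each line had a table of its own and was fitted alone. After median-ratio scaling the U87 value of CAVIN3 was -0.24, that of DNM1 -0.87, that of PRKCD -1.28 and that of STOM 1.18, so each kept its sign. Under that scaling DNM1 was no longer called in U87, and STOM was called in U87 and no longer in U118 (-0.97).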

How the results depend on the processing

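Over 365 recomputed values, 322 stayed within the criteria used, 43 moved beyond them and 0 changed direction among called results. Values within the criteria could still shift. With a pseudocount of 0.1, 2128 genes were called in U87, against 1497 in the main fit. The U87 log2 fold change of CAV1, which was not called, was 0.06 in the main fit and -0.12 without sensitive replicate 1. With a mean of at least 10 TPM required, fewer genes were tested and 805 were called in U87 and 2688 in U118. With no fold change threshold, 5413 of 13845 genes tested, 23 listed pathway genes and 2 members (CAVIN1 and CAVIN3) were called in U87. In U118 the calls were 7961 of 15527 genes tested, 29 listed pathway genes and 5 members, all tested ones but EHD2. Median-ratio scaling over all 12 libraries left 3 members nearer to U87 than to U118 sensitive cells in U118 resistant cells, and within a line the share of calls that were higher was 56.6% in place of 28.0% for U87, and 51.7% in place of 24.5% for U118. Without mitochondrially encoded genes these shares were 40.4% and 32.6%. The cause of these shifts was not tested. Leaving out 1 library gave 1397 to 1824 called genes in U87 and 4809 to 6937 in U118, 8 to 9 and 14 to 22 listed pathway genes, and the same 3 called members in U118. Of 154 recomputed log2 fold changes of members, 14 moved by over 1 SD. The labels give replicate numbers but do not say that same-numbered libraries are paired. Same-numbered libraries deviated together with correlations of -0.067 to 0.011 in U87 and 0.051 to 0.14 in U118. In U118 each library correlated best with its own number, so a link by number there is not excluded. The main fits used no pairing. With a replicate block, 1454 genes were called in U87 and 5581 in U118, and the members called did not change. The unknown depth limits what a listed 0 TPM means.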
